A study of Mus musculus with 18 samples.

Results

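The 10 genes described here encode lamins and proteins of the inner nuclear membrane. They are Lmna, Lmnb1, Lmnb2, Zmpste24, Lbr, Tmpo, Banf1, Lemd3, Sun1 and Sun2, chosen by name out of 21951 protein-coding genes of the GENCODE annotation. The gene body and 50 kb on each side, called the window, was set against 6 lists of regions that the authors called on the mouse genome (mm10) by ChIP-Seq, chromatin immunoprecipitation followed by sequencing. Lamin B1 and the histone mark H3K9me3 were profiled in whole livers of male C57BL/6 mice aged 3 months (young) and 21 months (old), with 2 biological replicates for each antibody and age. Foxa2 was profiled in livers of 12-week-old male Zmpste24 null mice and their wild-type littermates, 3 of each. The labels give the strain of all groups as C57BL/6, and the null mice lack Zmpste24 in every tissue. Whole liver holds other cells besides hepatocytes, and the lists hold no expression values by which the cell types or the loss of Zmpste24 could be checked.

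The nuclear lamina is a meshwork of lamin filaments under the inner nuclear membrane. A-type lamins come from Lmna and B-type lamins from Lmnb1 and Lmnb2, and chromatin that touches the meshwork forms lamina-associated domains, which are mostly silent and often carry methylated histone H3 lysine 9. Membrane proteins such as Lbr, the LEM-domain proteins and the SUN proteins tie chromatin and the lamina to the envelope, and Zmpste24 cuts the farnesylated tail from prelamin A. Loss of Zmpste24 leaves uncut prelamin A in the nucleus and gives mice a progeroid disease. Foxa2 is a forkhead transcription factor that can bind condensed chromatin in liver. The lists ask where DNA of these genes lay in called lamin B1 or H3K9me3 domains at each age, and whether Foxa2 sites near them differed between the genotypes. They say nothing about how much of each lamina protein the cells held, or whether a gene in a called domain was silent. The called lamin B1 domains held the start sites of 36.0% of all protein-coding genes in young and 62.2% in old livers. By separate measurements, the study reports less Lmna mRNA and lamin A protein in old livers, and no change in Lmnb1 mRNA or lamin B1 protein.

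Each list came from replicates merged before calling and gives positions without a signal, score or depth. No spread between mice could be given, so no difference between ages or genotypes was tested, and every count below is a description set beside the same count over all protein-coding genes. The old lamin B1 list covered 930 Mb in 1519 domains against 466 Mb in 1624 domains in young livers, and the H3K9me3 lists covered 617 Mb in old and 576 Mb in young livers. The medians were 340 and 200 kb for lamin B1, and 160 and 150 kb for H3K9me3. Per the study's supplement, the merged lamin B1 reads were more numerous in young than in old livers, the H3K9me3 reads more numerous in old livers, and the mutant Foxa2 reads were cut to the wild-type number. The part of depth and of the wider lamin B1 calling in the values of any single gene was not tested. All domain edges fall on 10 kb windows, so an edge closer than that to a start site is within the resolution of the call. The H3K9me3 lists hold fewer regions than the study describes for this mark, and the reason is not known.

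Promoters of 9 of the 10 genes were matched in RefSeq (GRCm38.p6, the same coordinates as mm10), as 250 bases before and 50 after the start site. Most were rich in CpG. The median member held 36 CpG in the 300 bases, against 7 over 32851 mouse promoters. Lemd3 had the most, 45, and Lmna the fewest, 1, but the RefSeq start of Lmna lies 6604 bases inside the longest GENCODE record and that of Tmpo 9696 bases inside. The GC box GGGCGG was found on either strand in 8 of 9 promoters (35.7% of all promoters) and CCAAT in 7 of 9 (37.4% of all). The forkhead core TGTTTAC was found in 0 of 9, against 3.65% of all promoters, which says only that these letters are not in these windows. The 250 bases before the start are shown for Lemd3 and Lmnb2, whose start sites were in both kinds of domain at one age and in neither at the other, and for Sun2, the gene with a Foxa2 site nearest to its start. Capitals mark GC boxes and CCAAT, read on either strand, and run together where matches touch or overlap.
Lemd3 promoter, chr10:120979331-120979580, minus strand: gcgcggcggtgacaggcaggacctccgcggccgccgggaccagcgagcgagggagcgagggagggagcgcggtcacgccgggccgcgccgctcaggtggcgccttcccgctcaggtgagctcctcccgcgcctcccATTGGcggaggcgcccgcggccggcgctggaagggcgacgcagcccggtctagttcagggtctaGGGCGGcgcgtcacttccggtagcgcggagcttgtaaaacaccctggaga
Lmnb2 promoter, chr10:80918246-80918495, minus strand: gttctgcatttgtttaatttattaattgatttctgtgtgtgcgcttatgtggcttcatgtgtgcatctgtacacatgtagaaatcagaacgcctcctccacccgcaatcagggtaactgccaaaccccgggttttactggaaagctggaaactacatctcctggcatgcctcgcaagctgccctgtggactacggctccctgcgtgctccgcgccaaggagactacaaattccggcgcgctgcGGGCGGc
Sun2 promoter, chr15:79742537-79742786, minus strand: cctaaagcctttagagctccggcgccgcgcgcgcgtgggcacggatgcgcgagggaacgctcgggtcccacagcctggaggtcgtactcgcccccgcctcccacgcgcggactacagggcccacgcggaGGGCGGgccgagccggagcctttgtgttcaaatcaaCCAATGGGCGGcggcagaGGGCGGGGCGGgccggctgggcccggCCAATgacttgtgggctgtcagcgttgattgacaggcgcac

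In young livers, lamin B1 domains reached into the windows of 6 of the 10 genes, Lmna, Lbr, Tmpo, Banf1, Lemd3 and Sun2, against 44.4% of all protein-coding genes. In old livers they reached into all 10 windows, against 68.5% of all genes. The 4 genes with a domain in old and none in young livers were Lmnb1, Lmnb2, Zmpste24 and Sun1, a pattern seen at 28.1% of all genes. The reverse was seen at 0 members and at 4.0% of all genes. Thus both B-type lamin genes lay outside called lamin B1 domains in young livers and within them in old livers. The A-type lamin gene lay within a domain at both ages. The nearest young domain was 492 kb from the Lmnb1 start but 68.2 kb from the Lmnb2 start. The Lmnb2 window, which began at 80851203, missed that domain by less than the 10 kb step of the calls. With 100 kb on each side the young count was 7 genes. The whole window was covered at 4 genes in young (21.8% of all genes) and at 8 genes in old livers (49.6% of all genes).

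H3K9me3 regions reached into 4 windows in young livers, those of Zmpste24, Lbr, Tmpo and Lemd3 (25.6% of all genes), and into 7 in old livers, those of Lmnb1, Lmnb2, Lbr, Tmpo, Lemd3, Sun1 and Sun2 (41.6% of all genes). Lmnb1, Lmnb2, Sun1 and Sun2 had the mark in old and not in young livers (24.4% of all genes). Zmpste24 alone had it in young and not in old livers (8.43% of all genes). Hence 3 genes, Lmnb1, Lmnb2 and Sun1, had neither lamin B1 nor H3K9me3 in young and both in old livers. The share of all genes with this joint change was not counted. With the Foxa2 lists included, the pattern of Lmnb1 was shared by 1110 other genes (5.06%) and that of Lmnb2 by 396 (1.80%). Lmna and Banf1 had no H3K9me3 in the window at either age.

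**Figure D1:**
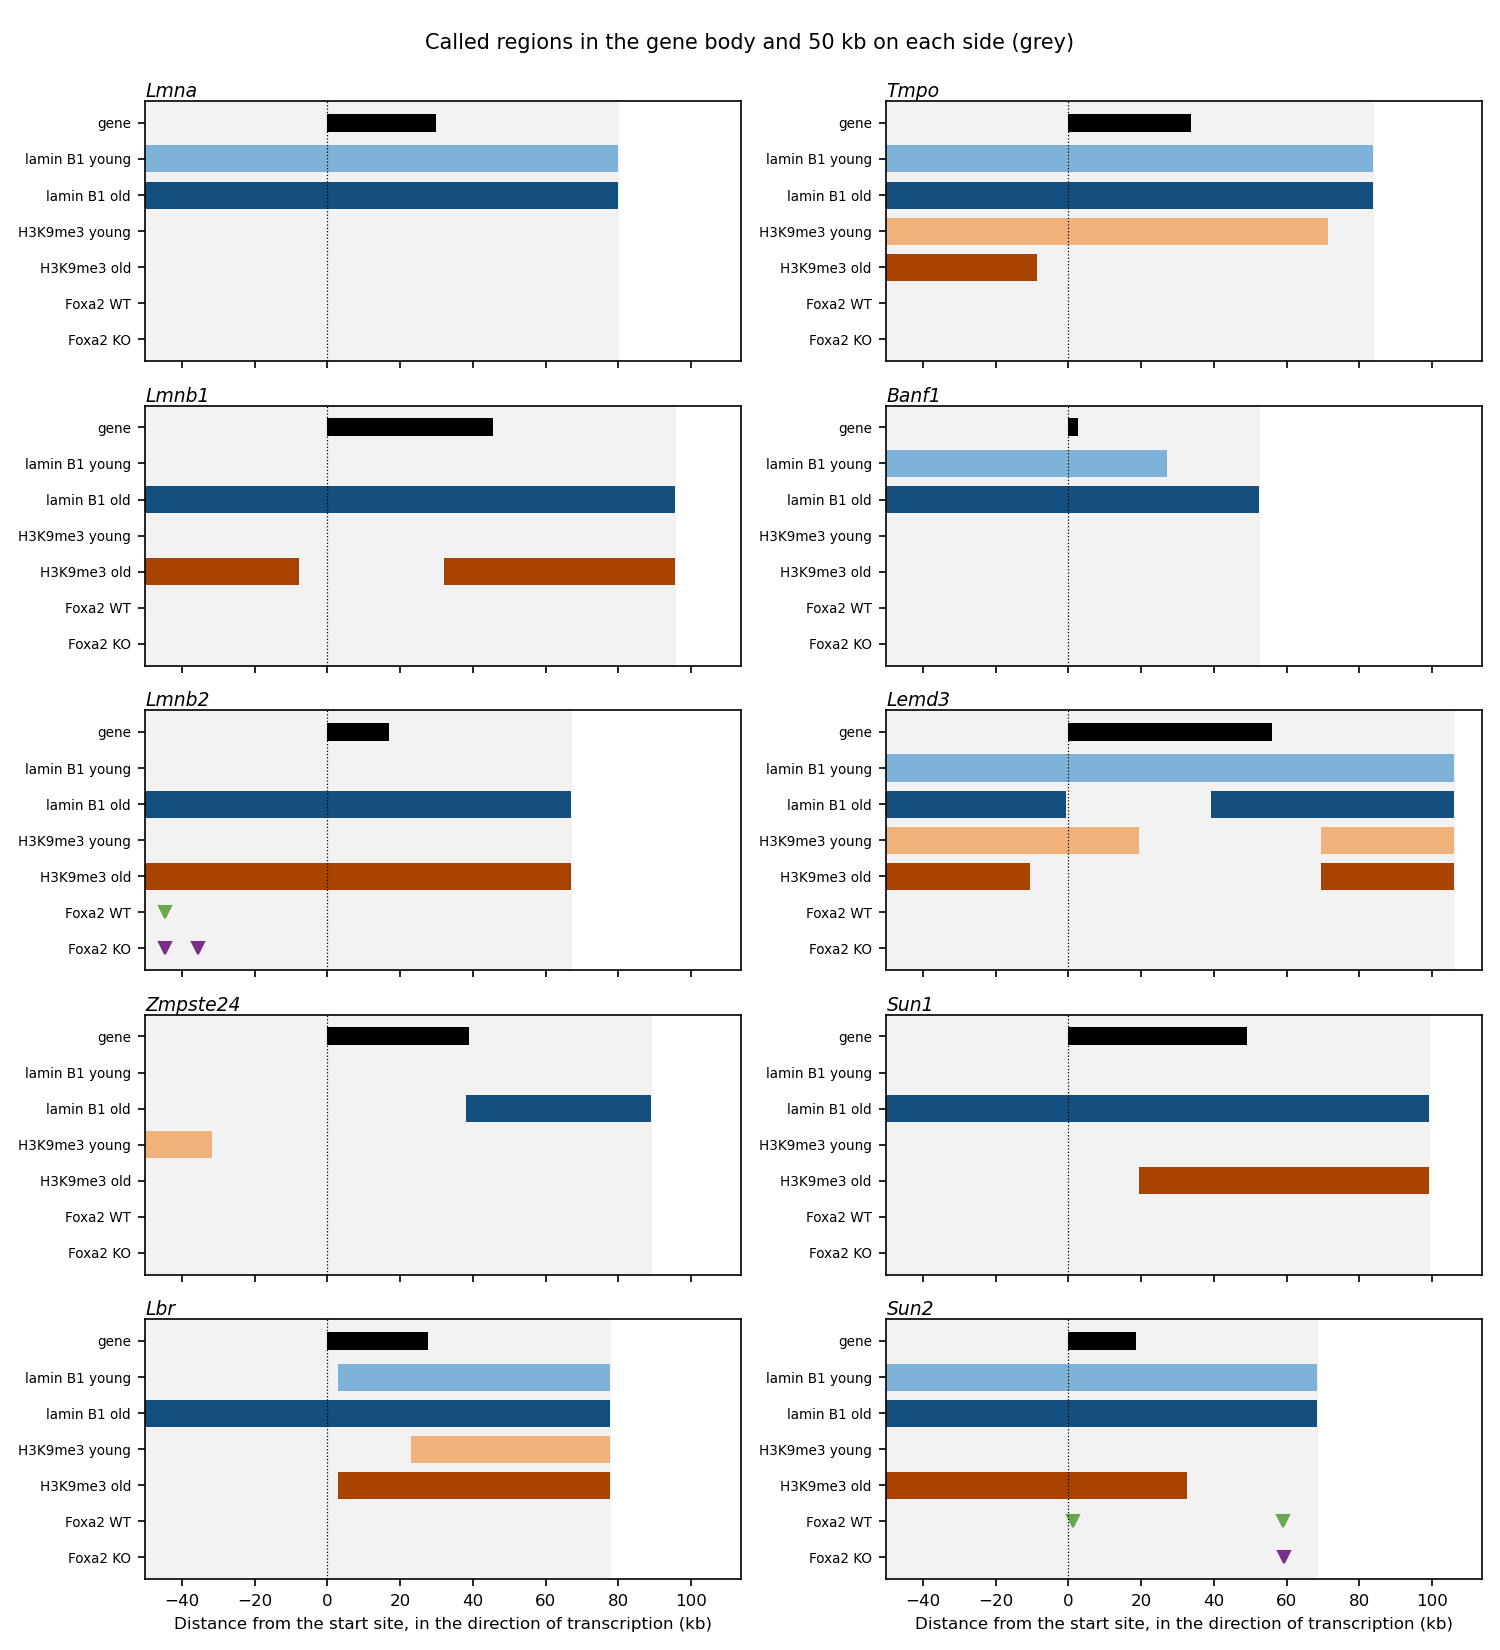
Regions called in each gene window, plotted against distance from the start site in the direction of transcription (kb). The black bar is the gene, grey is the window, blue bars are lamin B1 domains, orange bars H3K9me3 regions (light young, dark old), cut at the window's ends, and triangles mark the centres of Foxa2 sites. Lmnb1, Lmnb2 and Sun1 have blue and orange bars in the old rows and none in the young rows. The start of Lemd3 lies in a gap between old lamin B1 domains, and that of Zmpste24 is also outside them.

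The map of the windows shows these patterns gene by gene. Lmna, which encodes lamins A and C (chromosome 3, 88480147 to 88509956, minus strand), was fully covered by lamin B1 at both ages. The young domain ran for 290 kb, from 88300001 to 88590000, and the old one for 1400 kb, from 87360001 to 88760000. The old domain held the young one whole, and 8.89% of the old domains were longer. The number of protein-coding start sites that shared the domain with Lmna was 16 in young, itself included, and 47 in old livers. The nearest H3K9me3 region was 790 kb from the Lmna start at the younger age and 630 kb at the older, so the gene lay in lamin B1 domains well away from this mark. Its on and off pattern over the 6 lists was a common one, shared by 1408 protein-coding genes (6.41%).

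Lmnb2, which encodes the other major B-type lamin (chromosome 10, 80901203 to 80918245, minus strand), was covered by no domain of either kind in young livers. It lay in a stretch of 140 kb without a lamin B1 call, from 80850001 to 80990000. Lamin B1 was called on both sides of that stretch, and the nearest young domain lay 68.2 kb from the start site. In old livers a single domain of 2150 kb, from 79500001 to 81650000, spanned the stretch and held 131 protein-coding start sites, and 86.0% of its length was already covered in young livers. An H3K9me3 region of 320 kb, from 80770001 to 81090000, covered the whole window in old livers, and none of its length was covered in young livers. The gene body went from 0 to 100% for both. Its pattern over the 6 lists was shared by 396 genes (1.80%). The window had the highest GC content of the 10, 53.9%, above that of 99.6% of all genes.

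Lmnb1, which encodes lamin B1 itself (chromosome 18, 56707813 to 56753424, plus strand), was also free of both in young livers, but its surroundings differed from those of Lmnb2. The stretch without a young lamin B1 call was 1320 kb, and the nearest young domain was 492 kb away. In old livers a domain of 470 kb, from 56350001 to 56820000, covered the whole window, and none of that domain was covered in young livers. H3K9me3 in old livers flanked the gene start on both sides. Regions of 120 and 140 kb left 40.0 kb between them, and that gap held the start site, 7.81 kb from the nearer edge. That distance is within 1 window of the call. The gap was of the shortest kind in the old H3K9me3 list, as were 10.3% of its gaps. The mark covered 72.5% of the window and 29.4% of the gene body. The genes outside the window with covered shares most like those of Lmnb1, among the 1110 with the same pattern, were Dcp1b and Ncf4, whose shares differed in sum over the 4 domain lists by 0.141 and 0.191 percentage points.

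Zmpste24, the protease that matures prelamin A (chromosome 4, 121059237 to 121098241, minus strand), was the gene with the least lamin B1 in old livers. No young domain lay within 268 kb of its start. The old domain, of 220 kb from 120840001 to 121060000, lay downstream of the gene and took in 36.5% of the window. It covered 764 bases of the gene body, at the last exon, which is less than the 10 kb step of the calls. The start site was 38.2 kb from that domain. A young H3K9me3 region of 60 kb, 31.8 kb upstream of the start, covered 13.1% of the window, and in old livers the nearest one was 128 kb away. The pattern of Zmpste24 was the least common of the 10, shared by 75 genes (0.342%).

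Lbr encodes the lamin B receptor, a membrane protein that binds B-type lamins and heterochromatin (chromosome 1, 181815335 to 181843046, minus strand). Lamin B1 covered 58.5% of the window in young and 100% in old livers. The young domain of 120 kb ended at 181840000, in an intron 3.05 kb short of the start site, and the old domain of 180 kb held the start. The H3K9me3 region had its near edge 23.0 kb from the start when young and 3.05 kb from it when old, at the same position where the young lamin B1 domain ended. It covered 16.8% of the gene body in young and 89.0% in old livers. At Lbr both kinds of domain thus ended closer to the gene start or past it in old livers, and the gene alone of the 10 had both in the window at both ages without a start site in H3K9me3 at either age.

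Tmpo encodes the lamina-associated polypeptide LAP2, a LEM-domain protein (chromosome 10, 91147571 to 91181315, minus strand). Its window was wholly inside a lamin B1 domain at both ages, of 310 kb when young and of 530 kb when old. In young livers an H3K9me3 region of 520 kb covered the entire gene body and 90.7% of the window. In old livers the region, 720 kb long, began at 91190001, 8.69 kb upstream of the start site, and the gene body had none. The covered share of the window was then 30.9%. Lamin B1 at Tmpo was therefore the same at both ages within the window, while H3K9me3 was called over the gene in young and not in old livers.

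Lemd3 encodes MAN1, a LEM-domain protein that binds Smad factors and dampens TGF-beta signalling (chromosome 10, 120923413 to 120979332, minus strand). It was the gene with less of both in old livers. The young lamin B1 domain of 530 kb covered the whole window. In old livers domains of 1990 kb, ending at 120940000, and of 1150 kb, beginning at 120980001, left 40.0 kb uncovered, and the gap held the start site and most of the gene, so that 29.7% of the gene body was covered. The caller of the lamin B1 domains was set to a gap size of 3 windows, the shortest gap in each of the 4 domain lists was 40.0 kb, and this one was of the shortest kind, as were 16.0% of the gaps in the old lamin B1 list. The start site lay 669 bases from the nearer domain, within 1 window of the call. H3K9me3 covered 34.6% of the gene body and the start site in young livers, by a region of 170 kb, and none of the body in old livers, when the nearest region was 10.7 kb from the start. Start sites covered by both in young and by neither in old livers made up 0.651% of all genes, and Lemd3 was the 1 member. No other joint start-site pattern of lamin B1 and H3K9me3 was counted over all genes, the reverse change included. This share therefore cannot be ranked against other joint changes.

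Banf1 encodes barrier-to-autointegration factor, the small DNA-binding protein that LEM domains hold (chromosome 19, 5364638 to 5367168, minus strand). The gene is 2.53 kb long and lay in long lamin B1 domains at both ages. The young domain was 1040 kb, with 64 protein-coding start sites, and only 2.52% of the young domains were longer. The old domain was 1440 kb, with 72 start sites. The young domain began 27.2 kb from the start site, so that 75.3% of the window was covered in young and 100% in old livers. The nearest H3K9me3 region was 1963 kb away at the younger age and 183 kb at the older.

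Sun1 and Sun2 encode the SUN-domain proteins that join the lamina, through nesprins, to the cytoskeleton. Sun1 (chromosome 5, 139200637 to 139249840, plus strand) lay in 510 kb without a lamin B1 call in young livers, 181 kb from the nearest domain. In old livers it lay in a domain of 2680 kb with 41 start sites, of which 19.4% by length was covered in young livers. Sun2 (chromosome 15, 79724070 to 79742536, minus strand) lay in a young domain of 220 kb and in an old one of 3040 kb with 81 start sites, 30.3% of it covered in young livers. These were the longest old domains at any of the 10 genes, and 2.50% and 1.97% of the old list was longer. The SUN genes thus differed in young livers, where Sun2 alone was in a domain, and in old livers both windows were covered in full.

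H3K9me3 was called at neither SUN gene in young livers and at both in old livers. At Sun1 an old region of 910 kb began in an intron 19.4 kb past the start site and covered 53.5% of the window and 60.6% of the gene body. At Sun2 an old region of 120 kb, from 79710001 to 79830000, covered the whole gene body with the start site and 69.7% of the window. The nearest young regions lay 561 kb from the Sun1 start and 167 kb from the Sun2 start.

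**Figure D2:**
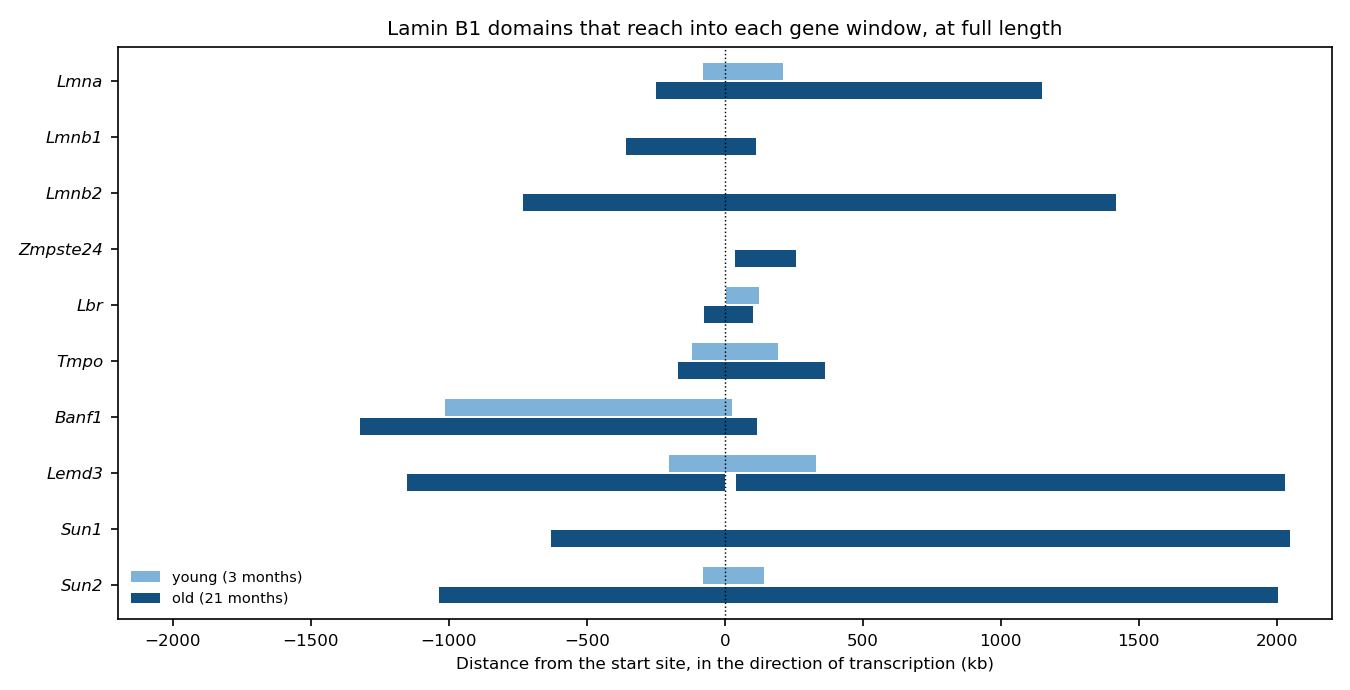
Full length of each lamin B1 domain that reaches into a gene window, plotted against distance from the start site in the direction of transcription (kb). Light blue bars are young and dark blue bars old domains. The old domains at Sun1 and Sun2 measure 2680 and 3040 kb, and the young domain at Banf1, 1040 kb, is the longest of the young ones.

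The plot of full domain lengths shows how far the old domains extended beyond the windows. At Lmna, Tmpo, Banf1 and Sun2 the young domain lay entirely within the old one (100% of its length). At Lbr 83.3% of the young domain and at Lemd3 92.5% of it was covered in old livers. The old domains at Lmnb1 and Zmpste24 had 0% of their length covered in young livers.

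Start sites gave a stricter count than windows. In young livers the start site lay in a lamin B1 domain at 5 genes, Lmna, Tmpo, Banf1, Lemd3 and Sun2 (36.0% of all genes), and in old livers at 8, all but Zmpste24 and Lemd3 (62.2% of all genes). Lmnb1, Lmnb2, Lbr and Sun1 were covered in old and not in young livers (30.5% of all genes), and Lemd3 in young and not in old livers (4.26% of all genes). The start site lay in H3K9me3 at 2 genes at each age, and these were different genes. The old count was 4 when any annotated transcript start was taken and 5 when a region within 10 kb was enough, while the young count was 2 under both. Tmpo and Lemd3 were covered in young livers (12.9% of all genes), and Lmnb2 and Sun2 in old livers (24.3% of all genes). The start was covered in old and not in young livers at 17.3% of all genes, and in young and not in old livers at 5.87%. By the start site alone, the LEM-domain genes Tmpo and Lemd3 were hence opposite to Lmnb2 and Sun2 in this mark. The Tmpo start lay 8.69 kb from the old region, so with a region within 10 kb it counted at both ages. The shares over all genes are for start sites inside a region, and none was counted for the looser rules.

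**Figure D3:**
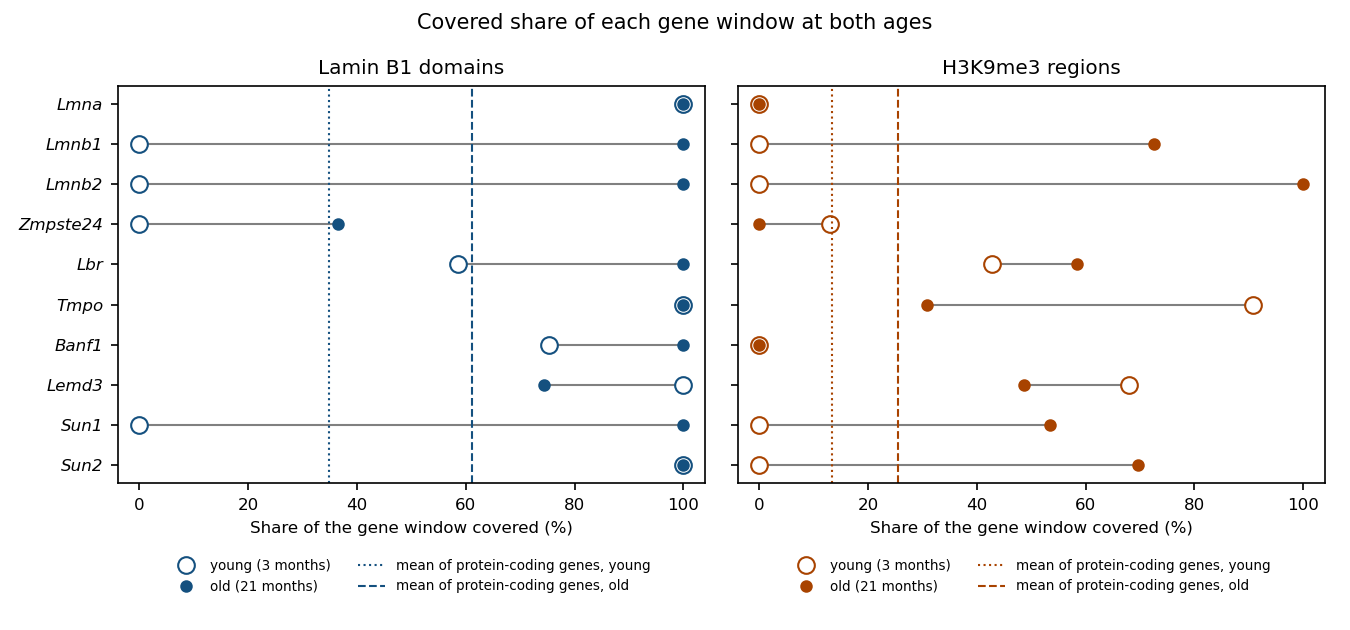
Share of each gene window covered by lamin B1 domains (left) and H3K9me3 regions (right), in percent. Open circles are young and filled circles old livers, joined by a line, and vertical lines give the means over all protein-coding genes. Lamin B1 goes from 0 to 100% at Lmnb1, Lmnb2 and Sun1, and H3K9me3 is lower in old livers at Zmpste24, Tmpo and Lemd3.

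As the plot of covered shares shows, the mean share of a window in lamin B1 domains was 53.4% in young and 91.1% in old livers over the 10 genes, against 34.8% and 61.1% over all protein-coding genes. The medians were 66.9% and 100%, against 0% and 98.4%. For H3K9me3 the means were 21.5% and 43.4%, against 13.4% and 25.6%, and the medians 0% and 51.1%, against 0% at both ages. Of the 1319 kb in the 10 windows, 650 kb was in lamin B1 domains at both ages, 541 kb in old and not in young livers, and 40.0 kb, all at Lemd3, in young and not in old livers. For H3K9me3, 172 kb was covered at both ages, 405 kb in old and not in young, and 128 kb in young and not in old livers, at Tmpo (80.0 kb), Lemd3 (30 kb) and Zmpste24 (18.2 kb).

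The H3K9me3 found at these genes lay nearly all inside lamin B1 domains of the same age. This held for 93.9% of its length in young livers, where the rest was the 18.2 kb upstream of Zmpste24, and for 100% in old livers. Over the windows of all protein-coding genes the shares were 31.6% and 82.8%. The young length inside lamin B1 came from Tmpo (121 kb), Lemd3 (106 kb) and Lbr (54.7 kb) alone. Lamin B1 covered 52.3% of the summed windows in young and 90.3% in old livers, which left little room for old H3K9me3 outside it. A difference from other genes was not tested. The GC content of the windows had a median of 47.6%, against 44.3% over all genes, whose upper quartile was 47.7%. Lmnb2, Sun2 and Lmna lay above that quartile with 53.9%, 51.0% and 50.5%, and Sun1 and Banf1 with 49.7% and 49.3%, while Lemd3 had the lowest value, 43.0%. Lmnb2 and Zmpste24, both free of lamin B1 in young livers, were the highest and among the lowest. Lemd3, Tmpo and Zmpste24, the genes with less H3K9me3 in old than in young livers, had the lowest GC content, 43.0%, 43.8% and 43.8%. A link between GC content and the age patterns was not tested.

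The wild-type list holds 4960 sites with a median width of 941 bases and the mutant list 8177 sites with a median of 889 bases. In each genotype sites fell in 2 windows, those of Lmnb2 and Sun2, against 30.6% of all genes in wild-type and 38.5% in mutant livers. The nearest site lay a median of 110 kb from the start sites of the 10 genes in wild-type livers (range 0.515 to 413 kb) and 150 kb in mutants (range 34.8 to 632 kb), against 149 and 102 kb over all genes. With 100 kb on each side, sites fell in 6 windows in wild-type and 3 in mutant livers. The share of all genes at that width was not counted. Zmpste24 had no site in its window, and the nearest was 123 kb away in wild-type and 146 kb in mutant livers. The nearest site to Lmna, 87.6 kb from its start in an intron of Slc25a44, was called in both genotypes.

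At Lmnb2, a site in an intron of the neighbouring gene Gng7 was called in both genotypes on chromosome 10. Its near edge in wild-type livers was 43.7 kb upstream of the Lmnb2 start. It measured 1883 bases in wild-type livers (80961957 to 80963839) and 1842 in mutants (80961997 to 80963838), and the nearest start site was that of Gadd45b. A further site of 1352 bases (80953001 to 80954352) was called in mutants and not in wild-type livers, with its near edge 34.8 kb upstream of Lmnb2 in the same gene. At Sun2, on chromosome 15, a site of 1464 bases (79740558 to 79742021) was called in wild-type livers and not in mutants. It lay inside Sun2, over exon and intron, and ended 515 bases from the start site, where Foxa2 was closest to any of the 10 genes. A site in an intron of Josd1, was called in both genotypes with an overlap of 379 bases. Its midpoint was 58.9 kb downstream of the Sun2 start in wild-type livers and 59.3 kb in mutants.

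Sequence of these sites, from the RefSeq assembly GRCm38.p6, shows which of them hold a forkhead core. The word TGTTTAC was searched on both strands, so that GTAAACA is a match too. It occurred 2 times in the shared site upstream of Lmnb2 and 1 time in the shared site downstream of Sun2, and 0 times in the mutant site at Lmnb2 and in the wild-type site at Sun2. Over whole lists the word was found in 27.7% of wild-type and 23.4% of mutant sites, and in a piece of 300 bases at the centre in 14.0% and 11.1%. A match is a description of the letters and not a measured contact. Below are 300 bases around a match, or at the centre of a site without one, with the core in capitals, so that the sites called in both genotypes can be read beside those called in 1.
Shared site upstream of Lmnb2, chr10:80962250-80962549, plus strand: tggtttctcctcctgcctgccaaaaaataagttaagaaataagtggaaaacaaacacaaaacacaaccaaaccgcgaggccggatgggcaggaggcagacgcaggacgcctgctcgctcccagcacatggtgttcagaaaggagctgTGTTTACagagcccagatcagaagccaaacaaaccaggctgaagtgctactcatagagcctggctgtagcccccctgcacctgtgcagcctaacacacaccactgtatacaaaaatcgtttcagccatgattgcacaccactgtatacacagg
Mutant site upstream of Lmnb2, chr10:80953527-80953826, plus strand: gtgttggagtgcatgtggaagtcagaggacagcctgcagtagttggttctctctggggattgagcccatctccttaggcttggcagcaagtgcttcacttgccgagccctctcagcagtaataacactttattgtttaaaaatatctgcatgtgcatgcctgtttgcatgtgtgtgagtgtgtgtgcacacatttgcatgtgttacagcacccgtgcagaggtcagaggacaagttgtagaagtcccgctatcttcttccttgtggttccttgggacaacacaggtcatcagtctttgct
Shared site downstream of Sun2, chr15:79683161-79683460, plus strand: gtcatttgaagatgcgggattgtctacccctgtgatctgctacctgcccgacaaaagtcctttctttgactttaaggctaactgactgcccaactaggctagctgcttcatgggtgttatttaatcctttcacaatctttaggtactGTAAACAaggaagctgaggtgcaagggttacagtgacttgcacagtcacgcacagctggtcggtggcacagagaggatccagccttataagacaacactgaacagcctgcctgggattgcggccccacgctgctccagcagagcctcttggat
Wild-type site in Sun2, chr15:79741140-79741439, plus strand: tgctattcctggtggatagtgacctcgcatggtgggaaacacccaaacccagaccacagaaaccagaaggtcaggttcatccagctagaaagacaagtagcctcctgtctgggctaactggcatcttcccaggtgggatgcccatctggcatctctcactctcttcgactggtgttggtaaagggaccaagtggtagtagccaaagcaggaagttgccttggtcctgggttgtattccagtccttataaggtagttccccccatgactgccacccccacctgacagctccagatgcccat

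The ages and the genotypes came from different mice, so domains and sites can only be laid side by side. The 2 Foxa2 positions upstream of Lmnb2 were outside both kinds of domain in young livers and inside both in old livers. The wild-type site in Sun2 was in a lamin B1 domain at both ages and in H3K9me3 in old livers, and the shared site downstream was in lamin B1 at both ages and in H3K9me3 at neither.

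**Figure D4:**
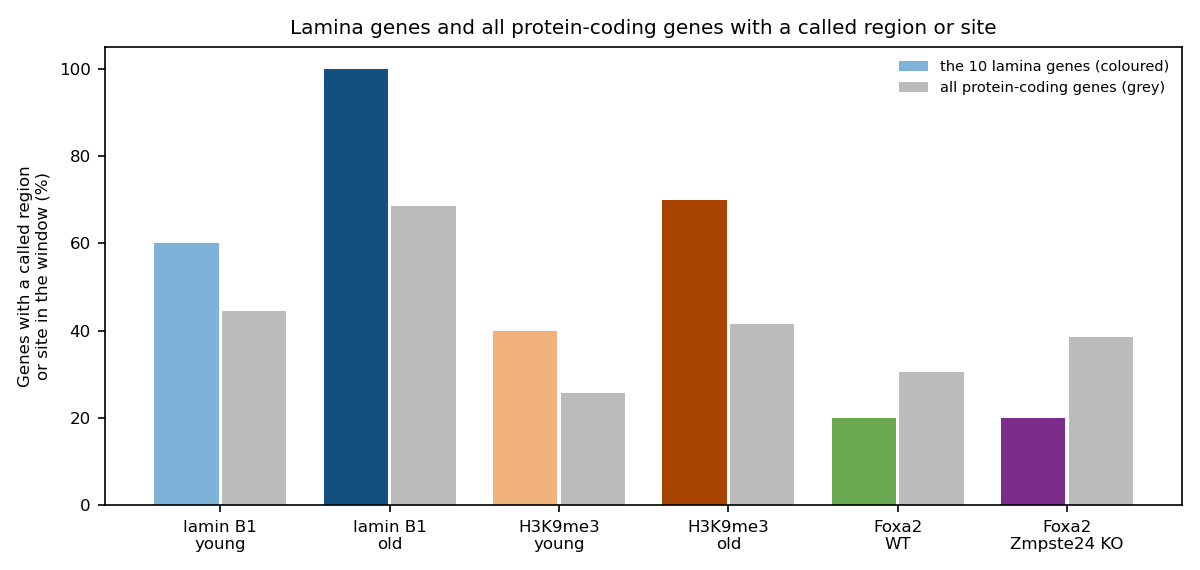
Percent of genes with a called region or site in the window, by list. Coloured bars are the 10 lamina genes and grey bars all 21951 protein-coding genes. The coloured bars are higher for the lamin B1 and H3K9me3 lists (60.0 and 100% for lamin B1, 40.0 and 70.0% for H3K9me3) and lower for the Foxa2 lists (20.0% in both).

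The plot of members and all genes sets the 6 counts together. With 10 genes, each one is worth 10 points on that scale, and no test was made of the differences. Genes of related function were counted in the same way from lists drawn up for comparison, without the 10 members. The shares over all genes to read beside them are 44.4% in young and 68.5% in old livers for lamin B1, 25.6% and 41.6% for H3K9me3, and 30.6% in wild-type and 38.5% in mutant livers for Foxa2. Of 4 other genes that process prelamin and CaaX proteins, lamin B1 reached into the windows of 3 in young and 4 in old livers, and H3K9me3 into 0 and 3. Icmt, the methyltransferase that acts after CaaX cleavage, went from 0 to 100% of its window in H3K9me3, and Fntb, a farnesyltransferase subunit, from 0 to 76.5%. Fnta, its partner subunit, went from 0 to 69.5% in lamin B1.

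Of 7 other genes of the LINC complex, the bridge of SUN proteins and nesprins, lamin B1 reached into 3 windows in young and 6 in old livers, and H3K9me3 into 1 and 4. Sun5, Syne3 and Syne4 went from 0 to 100% in H3K9me3. In lamin B1, Sun5 and Syne3 also went from 0 to 100%, Syne4 had 100% at both ages, and Sun3 went from 0 to 33.1%. Of 14 other genes of LEM-domain and inner membrane proteins, lamin B1 reached into 7 in young and 13 in old livers and H3K9me3 into 1 and 6. Ankle1, Nemp1, Tmem43 and Lemd2 went from 0 to 100% in lamin B1, and Lemd2 also from 0 to 100% in H3K9me3. Emd, the emerin gene, which was named after its values were seen, had nothing in any list, and it lies on the X chromosome, where the lamin B1 lists hold 2 domains in young and 1 in old livers.

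Among 20 nuclear pore genes the lamin B1 counts were 11 in young and 18 in old livers and the H3K9me3 counts 3 and 10. Ndc1, Nup133, Nup210 and Nup214 went from 0 to 100% in lamin B1. Foxa2 sites fell in 12 of these windows in wild-type and 7 in mutant livers. No other list had a lower count in mutants. The Foxa2 counts were 2 and 3 for the prelamin and CaaX genes and 2 and 2 for the LINC genes. For the LEM-domain and inner membrane genes they were 7 and 8. Among 16 genes tied to H3K9 methylation, HP1 proteins and cofactors included, lamin B1 reached into 11 and 13 windows and H3K9me3 into 8 and 6. Foxa2 sites fell in 4 of these windows in wild-type and 6 in mutant livers. Cbx3, an HP1 protein, the methyltransferase Suv39h2 and the demethylases Kdm4a and Kdm4b went from 0 to 100% in lamin B1. Start sites were in lamin B1 in young and not in old livers at 4 of the 16, Setdb2, Cbx5, Kdm3a and Kdm4c, which were named after their values were seen. The share over all genes was 4.26%, and the difference from the other lists was not tested. Setdb2 went from 87.0% to 0% of its window and Kdm4c from 82.6% to 0%, Kdm3a from 100% to 44.5%, and Cbx5 from 66.4% to 73.0%.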

How the data were processed

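Livers were profiled by ChIP-Seq for lamin B1, H3K9me3, H3K9me2 and Foxa2 in 18 samples. Per the study's methods, reads were aligned to mm10 with BWA, duplicates were removed with Picard, uniquely aligned reads were kept and replicates were merged. Epic was run for lamin B1 domains. PeakSeq was run for Foxa2, after mutant reads had been sampled down to the wild-type depth. The caller of the H3K9me3 regions is not given in the methods, and the labels list SICER. The authors deposited region positions without scores, counts or depth, called on merged replicates, so no test could be made. The merged depth of each list is stated in the study's supplement and is not in the lists. H3K9me2 was not analysed here.

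Lists were intersected with GENCODE vM21 gene records plus 50 kb on each side, at an overlap of at least 1 bp. The start site is the 5′ end of the gene record. Ends of the domain lists were read as the last base of a 10 kb window and Foxa2 lists as BED, and coordinates are given from 1. Sequence and promoters came from RefSeq GRCm38.p6, and 0 regions passed a chromosome end. All 10 members are named, other genes as examples of the lists by largest difference in covered share (up to 4 a list), as hosts or neighbours of Foxa2 sites, or as nearest patterns of a lamin gene. Emd, Setdb2, Cbx5, Kdm3a and Kdm4c were named outside this rule, after their values were seen. The members and lists were chosen with earlier results of these data known. Interval code was tested on 200 simulated region sets and was exact in 200. Python 3.11.15, numpy 2.4.6 and matplotlib 3.10.9 were used.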

Additional observations from a re-analysis of the deposited data

How the results depend on the processing

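Among the alternative values of the main counts and medians, 42 stayed within a limit and 12 moved. The limit was 1.5 times for a count and a 95% Wilson interval for a median share. A median is not a proportion of trials, so that interval is a loose limit. With 10 kb on each side the young lamin B1 median was 86.3% against 66.9% and still stayed. The 42 include the values for regions of at least 50 kb, which could not change, as the shortest domain in a window was 60 kb. The old lamin B1 and young H3K9me3 medians stood at 100% and 0% throughout. With the gene body alone, the median covered share was 94.5% for lamin B1 in young livers and 14.7% for H3K9me3 in old livers, and Foxa2 sites fell in 1 gene in wild-type and 0 in mutant livers. With 10 kb on each side the old H3K9me3 median was 20.7% and the Foxa2 counts were again 1 and 0. With 100 kb the wild-type count was 6 and the mutant count 3. The shares of all genes were counted with 50 kb on each side only. Only 2 genes had at least 50% of the window in H3K9me3 in young livers. The start site lay in H3K9me3 in old livers at 4 genes when any annotated transcript start was taken, and at 5 when within 10 kb of a region, an alternative chosen after seeing the data. Mutant sites at least as wide as the median fell in 1 window. These changes follow from the size of the window or the rule itself. A further 12 values, with gaps of up to 30 kb filled, tested nothing and are not counted, since the shortest gap in each list is 40.0 kb. Over all annotated genes in place of protein-coding ones, the window shares were 35.1% and 56.4% for lamin B1 in young and old livers, 27.5% and 37.5% for H3K9me3, and 23.2% and 31.5% for Foxa2 in wild-type and mutant livers. No paired analysis was possible because the lists hold merged replicates, and for the same reason no replicate could be left out and no stricter score set.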
